A study of Mus musculus with 20 samples.

Results

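The effect of SGC0946 on macrophages stimulated with LPS was read by setting 3 RNA-seq libraries of SGC0946+LPS cells against 3 libraries of DMSO+LPS cells, 6 of the 20 libraries of the study, chosen by their column names. All were bone marrow-derived macrophages, cells grown from the marrow of C57BL/6 mice in medium conditioned by L929 cells, a source of the growth factor M-CSF. In the SGC0946+LPS group the compound was present at 1 µM while the marrow cells differentiated, and LPS from Escherichia coli was given at 10 ng/mL for 3 h. The DMSO+LPS group received the solvent DMSO in place of the compound and the same LPS. Each arm held mice 1, 2 and 3, and 3 values given together are always in that order. The unstimulated cells used for comparison had the same SGC0946 or DMSO treatment without LPS, with 4 mice per arm. The remaining libraries came from DMSO or SGC0946 cells given GW3965, an agonist of the nuclear receptor LXR, without LPS. They entered the shared fit and no comparison. The inhibitor was thus present throughout differentiation, so an effect on how the cells matured and one on their answer to LPS cannot be told apart in this design.

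DOT1L is the enzyme that methylates lysine 79 of histone H3, a mark laid down over the bodies of transcribed genes, and SGC0946 is a small molecule that occupies its cofactor pocket. LPS, a component of the outer membrane of Gram-negative bacteria, is sensed by the receptor TLR4 on macrophages. The adaptors MYD88 and TRIF then carry the signal, the first to NF-kB and AP-1 and the cytokine genes they serve, the second also to interferon beta and, through its receptor, to the interferon-stimulated genes.

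The LPS libraries held 8174951 to 13331945 counts over the 24342 genes of the table, and 12013 genes were tested. Dot1l itself was measured at 69.8, 64.6 and 69.7 CPM, counts scaled to a common library size, in DMSO+LPS cells and at 62.2, 49.2 and 56.9 CPM in SGC0946+LPS cells. Its groups did not overlap, and its change did not pass the test (log2 fold change -0.28 ± 0.16, SE; edgeR adjusted p = 0.321); the compound acts on the enzyme, so this transcript does not check the treatment. The summed level of 8 macrophage markers was 24679 to 26337 CPM in DMSO+LPS and 21795 to 25855 CPM in SGC0946+LPS cells, and 5 of 7 erythroid markers had 0 counts in all 6 libraries. B cell markers summed to 146.9 to 154.5 CPM in DMSO+LPS and 137.4 to 159.4 CPM in SGC0946+LPS cells. For megakaryocyte and platelet markers the sums were 130.5 to 134.9 and 116.8 to 132.0 CPM, and for mast cell and basophil markers 41.2 to 51.9 and 45.8 to 51.8 CPM. Of the 6 mast cell and basophil markers 1 was tested, and Mcpt8, Mcpt4 and Fcer1a had 0 counts in all LPS libraries. Without LPS the sums of these 6 markers were 0.225 to 0.637 CPM with DMSO and 0.451 to 0.671 CPM with SGC0946. The library of SGC0946+LPS replicate 2 stood apart from the other two of its group: the chi-square per gene between their counts was 9.49 and 10.1 against them, and 4.18 between replicates 1 and 3. In the DMSO+LPS group the same measure was 4.14 to 4.78. Below, D1 to D3 stand for the DMSO+LPS libraries and S1 to S3 for the SGC0946+LPS libraries of mice 1 to 3. Where leaving out a library, both libraries of mouse 2, or another fit ended a call, this follows the adjusted p as "lost", with the adjusted p of that fit in parentheses; "the block" is a fit with mouse as a term.

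After LPS, SGC0946 changed 856 of the 12013 tested genes (7.13%): 464 were higher (3.86%) and 392 were lower (3.26%), at a Benjamini-Hochberg adjusted p under 0.05 in edgeR's quasi-likelihood test. Such genes are termed called below, and "rose" and "fell" are used of called genes alone. The changes were mostly small, with a median size of 0.50 on the log2 scale. Of the called genes 836 had groups that did not overlap, against a background of 23.6% of all tested genes, and 849 moved the same way in all 3 mice. At least 2-fold differences were found in 155 genes that rose and in 17 that fell. Of those 155, 84 had a mean under 5 CPM in both groups. With a mean of 1 to 10 CPM 150 of 3283 tested genes rose (4.57%) and 39 fell (1.19%). With 100 CPM up to 1e+03 CPM 90 of 2289 rose (3.93%) and 121 fell (5.29%). The share that rose was thus similar at both levels, and the share that fell was smaller at the lower level. The count of called genes was 527 without D1, 432 without D2, and 333 without both LPS libraries of mouse 2, of which 293 were among the 856. Of 132 called genes picked for description by a fixed rule, 66 kept their call and direction under all 18 other settings.

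**Figure D1:**
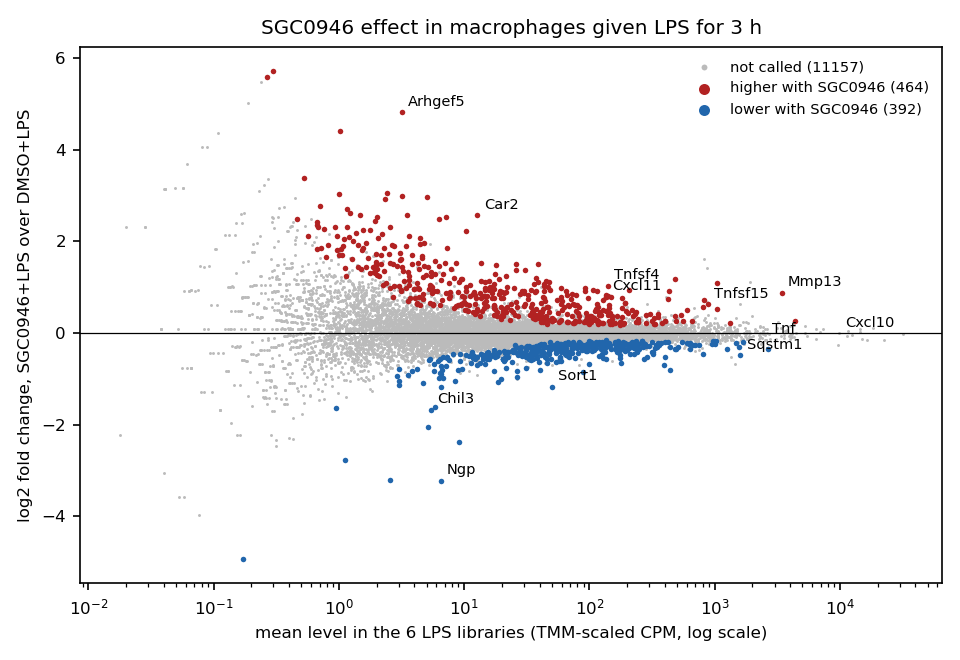
Log2 fold change of SGC0946+LPS over DMSO+LPS cells (vertical axis) against the mean level of each gene in the 6 LPS libraries in TMM-scaled CPM (horizontal log axis). The 464 genes called higher are red, the 392 called lower are blue, and the large rises lie mostly at low levels, while Tnf and Cxcl10 lie near 0 among the most abundant transcripts.

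Of the genes that sense and relay the LPS signal, Ticam1 and Irak3 fell and Tlr4 rose. These were 3 of 21 Toll-like receptors, adaptors and IRAK kinases, where 7.13% of all tested genes were called, with a list median of -0.05 against 0.00 for all tested genes. Ticam1, which encodes the adaptor TRIF, was at 39.7, 37.6 and 40.4 CPM in DMSO+LPS and 32.6, 26.9 and 27.7 CPM in SGC0946+LPS cells. No SGC0946 library reached the lowest control, and Ticam1 fell by 0.43 ± 0.09 on the log2 scale (adjusted p = 0.00519; lost without mouse 2 (0.0529)). Irak3, the kinase-like brake on TLR signalling, fell by 0.34 ± 0.08 (adjusted p = 0.0171; lost without D2 (0.0692), D3 (0.0639), S3 (0.0756) or mouse 2 (0.0989)). Tlr4 itself rose by 0.25 ± 0.07 (adjusted p = 0.0319; lost without D2 (0.167), D3 (0.0716), S1 (0.0609), S2 (0.130) or mouse 2 (0.352) and with no count filter (0.0606) or the LPS libraries fitted alone (0.0501)). Its co-receptor gene Cd14 stood at 1614, 1517 and 1604 CPM with DMSO and 1473, 1778 and 1338 CPM with SGC0946, with overlapping groups and a change of -0.05 ± 0.09 (adjusted p = 0.833). Myd88 was among the 18 members that did not pass.

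No gene among 18 NF-kB subunits, inhibitors and kinases was called by edgeR; 2 had an unadjusted p under 0.05, DESeq2 called 1 and limma-voom none, and 1 fell without S2. Nfkbia, the inhibitor that NF-kB itself induces, was at 1217, 1246 and 1290.1 CPM with DMSO and 1177, 1352 and 1164 CPM with SGC0946, a change of -0.02 ± 0.07. Rel, an NF-kB subunit, had a change of 0.03 ± 0.07. In both genes the libraries of the arms overlapped (adjusted p = 0.897 and 0.865). Of 8 SOCS genes, which encode feedback inhibitors of cytokine receptors, none was called by edgeR, DESeq2 or limma-voom, and none had an unadjusted p under 0.05; 1 fell without S2.

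Among 27 immediate early and MAPK feedback genes 1 rose and 1 fell, against 7.13% of all genes called in either direction. Nr4a3, an orphan nuclear receptor, was at 54.3, 55.6 and 60.6 CPM in DMSO+LPS cells and at 98.96, 82.4 and 121 CPM in SGC0946+LPS cells. The SGC0946 values were all above the DMSO values, a rise of 0.82 ± 0.13 (adjusted p = 0.000348). Zfp36 encodes tristetraprolin, which binds AU-rich elements and speeds the decay of Tnf and other cytokine transcripts. It went from 707, 732 and 689 CPM to 542, 563 and 574 CPM, with no overlap, a fall of 0.34 ± 0.07 (adjusted p = 0.00468; lost without mouse 2 (0.0512)). Its relative Zfp36l2 fell by 0.50 ± 0.10 (adjusted p = 0.00268). Zc3h12d, which encodes an RNA-degrading protein of the regnase family, fell from 42.3 ± 2.02 to 28.4 ± 2.25 CPM (SD, n = 3 each; edgeR adjusted p = 0.000122). Fos and Egr1 were at 6.47 to 11.4 CPM in all 6 libraries, and their groups overlapped.

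Of 20 tested cytokine genes 3 rose and none fell, where 3.86% of all genes rose. The 17 others did not pass, Tnf, Il1b and Il6 among them; the median was 0.16, and 5 rose without S2. Tnf stood at 2667, 2759 and 2554 CPM in DMSO+LPS cells and at 2439.8, 2525 and 2244 CPM in SGC0946+LPS cells. All SGC0946 values lay just below the DMSO values, and the change of -0.15 ± 0.13 did not pass (adjusted p = 0.573). Il1b had 849, 833 and 857 CPM with DMSO and 984, 742 and 1154 CPM with SGC0946, where mouse 2 was below and mice 1 and 3 were above all the controls. Il6 had a similar pattern, with SGC0946 mouse 2 at the level of the lowest control: 353, 406 and 384 CPM against 473, 353 and 516 CPM. For Il6 the change was 0.23 ± 0.11 (edgeR adjusted p = 0.247), and the adjusted p was 0.0193 without S2. Il6 also passed without both LPS libraries of mouse 2, with a log2 change of 0.42 (edgeR adjusted p = 0.0279). Il10 was at 8.05, 6.60 and 7.75 CPM and 15.98, 6.49 and 11.3 CPM and passed only without S2 (adjusted p = 0.208 with it, 0.0395 without it). Ifnb1, the interferon beta gene, was low in both arms, at 7.37, 7.67 and 9.27 CPM and 6.83, 6.37 and 8.54 CPM. Il23a was too low to be tested, with 0 to 0.43 CPM in DMSO+LPS cells and 0.36 to 2.56 CPM in SGC0946+LPS cells.

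Il12b, which encodes the p40 chain shared by IL-12 and IL-23, differed more between mice than between arms. It was at 159, 583 and 156 CPM in DMSO+LPS cells and at 289, 975 and 296 CPM in SGC0946+LPS cells. Mouse 2 was far above mice 1 and 3 in both arms, so the groups overlapped, yet in each mouse the SGC0946 library was the higher one. Il12b did not pass without the pairing (0.79 ± 0.39, adjusted p = 0.255), and passed when mouse was a term of the fit (log2 fold change 0.84, adjusted p = 1.19e-06 with the block). Without D2 it passed as well, with a log2 change of 1.73, and without S2 the log2 change was -0.045. Each of these fits kept the high library of mouse 2 in 1 arm only. Without both LPS libraries of mouse 2 it passed, with a log2 change of 0.89 (edgeR adjusted p = 4.37e-05).

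The 3 cytokine genes that rose were Tnfsf15, Inhba and Il1rn. Tnfsf15 encodes TL1A, a TNF-family ligand that costimulates T cells. It stood at 718, 657 and 708 CPM in DMSO+LPS cells and at 1088, 937 and 1182 CPM in SGC0946+LPS cells. The lowest SGC0946 value was above the highest control, and the rise of 0.62 ± 0.08 was called under every alternative tried (adjusted p = 7.11e-05). In unstimulated cells the log2 change of Tnfsf15 was 0.14 ± 0.14 (adjusted p = 0.585), and the difference between the effects was 0.48 ± 0.16 (adjusted p = 0.397). Inhba, the activin A subunit, went from 21.6, 19.9 and 26.6 CPM to 57.96, 38.4 and 60.5 CPM without overlap, and its smallest rise was in mouse 2. The log2 change was 1.20 ± 0.25 (adjusted p = 0.00563; lost with DESeq2 (0.255)). Il1rn, which encodes the antagonist of the IL-1 receptor, was at 763, 890.0 and 925 CPM and 1088, 1429.9 and 1208 CPM, highest in SGC0946 mouse 2. It rose by 0.53 ± 0.14 (adjusted p = 0.0230; lost without D1 (0.108), D2 (0.0633), S2 (0.105) or mouse 2 (0.167)). Tnfrsf1b, the gene of TNF receptor 2, was an abundant transcript that fell, from 3016, 2993 and 2975 CPM to 2346, 2561 and 2164 CPM. Its fall was 0.35 ± 0.08 (adjusted p = 0.0104; lost without S3 (0.0564)).

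The neighbouring genes of the chemokines that signal through CXCR3 gave different calls. Cxcl9, Cxcl10 and Cxcl11 lie side by side on mouse chromosome 5, and transcripts of all 3 are induced by interferon. CXCL9 and CXCL10 attract T cells; the Cxcl11 gene of C57BL/6 mice carries a frameshift, so its values are those of a transcript only. Of 8 CXC chemokine genes tested 2 rose and none fell, against 3.86% of all genes that rose. Cxcl11 was at 103, 96.9 and 98.5 CPM in DMSO+LPS and at 173, 184 and 160.4 CPM in SGC0946+LPS cells. The arms were well separated, with a rise of 0.79 ± 0.09 (adjusted p = 1.93e-05). Cxcl9 went from 687, 600.5 and 654 CPM to 1039.7, 753 and 1099 CPM, also without overlap and with mouse 2 lowest in both arms. Its rise was 0.57 ± 0.11 (adjusted p = 0.00303). Cxcl10 had 9991, 9865 and 9647 CPM with DMSO and 10079, 9873 and 9466 CPM with SGC0946, and the groups overlapped. Its change of -0.0042 ± 0.18 was close to 0 (adjusted p = 0.996), and its sign turned under other settings. Per transcript length Cxcl10 was by far the most abundant of the 3, at 5604 ± 178 RPKM in DMSO+LPS cells, against 139 ± 9.12 RPKM for Cxcl9 and 38.8 ± 1.46 RPKM for Cxcl11 (mean ± SD, n = 3).

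Among 12 CC chemokine genes 1 rose and 1 fell, against 7.13% of all genes called; with the block 2 rose and 3 fell. Ccl6 was very even within each arm, at 506, 507 and 499 CPM and 602, 611 and 609 CPM, a rise of 0.27 ± 0.05 (adjusted p = 0.00311). Ccl8 fell by 0.42 ± 0.12 (adjusted p = 0.0328; lost without D1 (0.0733), D2 (0.0904), D3 (0.0921), S1 (0.0534), S3 (0.133) or mouse 2 (0.106)). Ccl2, the main attractant of monocytes, stood at 1989, 1806 and 1590.1 CPM with DMSO and 1397, 736 and 1238 CPM with SGC0946. All SGC0946 libraries were below the controls, and mouse 2 was far the lowest. The change of -0.68 ± 0.26 did not pass in the main fit (adjusted p = 0.123). It passed with the block (adjusted p = 0.0195), no count filter (0.0325), limma-voom (0.0254) and the LPS libraries fitted alone with the block (0.00432). Ccl5 overlapped between the arms, at 1571, 1553 and 1586 CPM and 1645, 1823 and 1192 CPM.

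**Figure D2:**
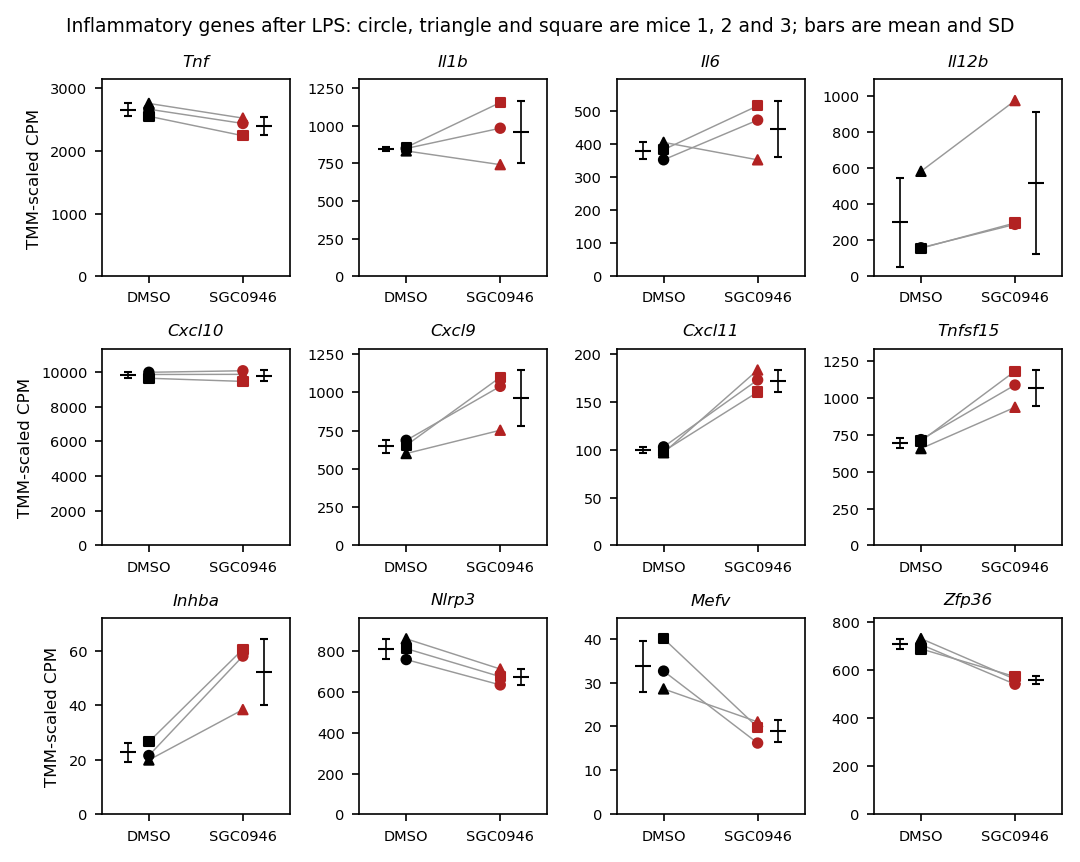
TMM-scaled CPM (vertical axes, from 0) of 12 inflammatory genes in each DMSO+LPS (black) and SGC0946+LPS (red) library; circle, triangle and square are mice 1, 2 and 3, joined by lines, and the bars are the mean and SD of 3 libraries. Tnf and Cxcl10 are near level, Il12b is high in mouse 2 in both arms, and Cxcl9, Cxcl11, Tnfsf15 and Inhba are higher and Nlrp3, Mefv and Zfp36 lower in all 3 mice.

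Ifi44 was the 1 called gene among 29 type I interferon-stimulated genes (median 0.09), where 3.86% of all tested genes rose. The share called was thus near that of all genes. DESeq2 called 2 and limma-voom 3, and 3 had an unadjusted p under 0.05 by edgeR, where 21.3% of all tested genes had one. In 9 all SGC0946 libraries lay above the controls, and in none all below, where 11.9% and 11.7% of all tested genes did. Ifit1, one of the most abundant, was at 6925, 7266 and 6934 CPM with DMSO and 7174, 7847 and 7335 CPM with SGC0946. Its change of 0.08 ± 0.28 did not pass (edgeR adjusted p = 0.914). That SE comes from the fit of all 20 libraries and is not the spread of the values shown. Ifi44 stood at 123, 154 and 147 CPM in DMSO+LPS and 252, 276 and 291 CPM in SGC0946+LPS cells. The SGC0946 libraries were all above the controls, with a rise of 0.95 ± 0.17 (adjusted p = 0.00109). Irf1, an interferon-induced transcription factor, overlapped between the arms at 2342, 2420.2 and 2474 CPM and 2336, 2722 and 2376 CPM. Irf4, another factor of this family, was low and rose from 1.23, 1.17 and 0.830 CPM to 3.29, 2.04 and 3.42 CPM, by 1.40 ± 0.26 (adjusted p = 0.00181).

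The guanylate-binding proteins (GBPs) and immunity-related GTPases coat the vacuoles of intracellular microbes. Of 16 such genes 4 rose and none fell (median 0.19), against 3.86% of all genes that rose, and in 9 all SGC0946 libraries lay above the controls, as they did in 11.9% of all tested genes. DESeq2 called 2 of them, limma-voom and the block 6 each, and 2 were called without D1, D2, S2 or S3. The 4 that rose were Gbp8, Gbp4, Tgtp1 and Gbp2b. The call of Gbp2b was lost in 5 of the 6 edgeR fits that left out 1 LPS library. It was also lost without mouse 2 (0.271) and with no count filter (0.0725) or DESeq2 (0.0695). Gbp8 had 16.5, 15.3 and 19.1 CPM with DMSO and 44.05, 46.9 and 39.97 CPM with SGC0946, widely apart. Its rise of 1.37 ± 0.16 was called under every alternative (adjusted p = 2.38e-05). Gbp4 went from 545, 620.2 and 677 CPM to 932, 1044 and 1067 CPM, a rise of 0.72 ± 0.14 (adjusted p = 0.00382; lost with DESeq2 (0.0656)). Tgtp1, an immunity-related GTPase, rose by 0.57 ± 0.15 (adjusted p = 0.0278; lost without D1 (0.130), D2 (0.119), S1 (0.0750), S2 (0.0595), S3 (0.0636) or mouse 2 (0.175)). Gbp2, the most abundant of those named here, did not pass, at 3469, 3698 and 3724 CPM and 3676, 3921 and 3704 CPM, with overlapping groups. Reads of these paralogs, and of Tgtp1 and its near-identical copy Tgtp2, may be split between copies, so their counts are uncertain.

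The element known from interferon-induced promoters was found both in genes that rose and in genes that were not called. The interferon-stimulated response element (ISRE), searched on both strands as GAAA, any 2 bases and GAAA, is the site bound by interferon regulatory factors and by the interferon-activated STAT complex. RefSeq promoter windows of GRCm38.p6, the build also called mm10, reach from 250 bases before to 50 bases after the start, and 11 of the 16 GTPase genes have one. The ISRE letters stood in 10 of those 11 genes, in 13 of 22 interferon-stimulated genes, in 4.05% of tested genes with a window, and in 3.44% of all 32851 windows. They were found in the windows of 27 of 341 called genes that rose (7.92%) and in 6 of 322 that fell (1.86%). The windows of Tgtp1, which rose, and of Cxcl10, which was not called, both hold it. They are shown 5′ to 3′ with the ISRE in capitals, to set side by side a gene of either kind; that of Cxcl10 also has 1 AP-1 match and 1 Y box, which are described below.
Tgtp1 (chr11:48992197-48992496, minus strand): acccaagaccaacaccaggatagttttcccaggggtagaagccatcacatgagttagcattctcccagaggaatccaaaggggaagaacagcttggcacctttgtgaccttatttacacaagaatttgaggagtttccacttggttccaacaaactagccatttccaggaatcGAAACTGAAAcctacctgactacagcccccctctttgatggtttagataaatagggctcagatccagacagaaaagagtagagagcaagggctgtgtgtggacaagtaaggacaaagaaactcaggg
Cxcl10 (chr5:92348840-92349139, minus strand): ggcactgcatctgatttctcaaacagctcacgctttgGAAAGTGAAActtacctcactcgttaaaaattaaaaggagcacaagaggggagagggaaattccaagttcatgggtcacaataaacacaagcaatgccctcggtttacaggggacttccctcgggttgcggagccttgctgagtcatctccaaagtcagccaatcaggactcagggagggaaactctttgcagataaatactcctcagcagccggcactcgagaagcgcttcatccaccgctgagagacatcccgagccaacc
The windows of Ifi44, which rose, and of Cxcl9 hold no match to these letters.

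Some inflammasome genes fell. Of 15 tested, 4 fell and none rose, against 3.26% of all genes that fell, although the list median was 0.03. The count was 2 without D2, S1 or S3, and 1 without D3 or without both libraries of mouse 2. Nlrp3, the sensor protein whose induction by LPS primes the inflammasome, was at 759, 861 and 813 CPM in DMSO+LPS cells and at 635, 713 and 675 CPM in SGC0946+LPS cells. The arms did not overlap, and in each mouse the SGC0946 library was lower. The fall was 0.27 ± 0.07 (adjusted p = 0.0245; lost without D2 (0.126), D3 (0.0573), S1 (0.0893), S3 (0.0580) or mouse 2 (0.0932)). Mefv, which encodes the sensor pyrin, went from 32.6, 28.5 and 39.99 CPM to 16.2, 21.05 and 19.8 CPM, a fall of 0.82 ± 0.19 (adjusted p = 0.00937; lost without D3 (0.0556)). Panx1, the pannexin 1 channel that releases ATP, fell by 0.88 ± 0.18 (adjusted p = 0.00529; lost without mouse 2 (0.109)). The fourth gene, Nek7, the kinase that binds NLRP3, had the smallest change, -0.17 ± 0.05 (adjusted p = 0.0387; lost without D2 (0.137), D3 (0.134), S1 (0.0732), S2 (0.0677), S3 (0.0967) or mouse 2 (0.179) and with no count filter (0.0601), a stricter count filter (0.0592), the LPS libraries fitted alone (0.167) or the LPS libraries fitted alone with the block (0.140)).

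Several genes for antigen presentation to CD4 T cells rose with SGC0946, and the highest list median was in S2. Of 13 MHC class II genes 7 rose and none fell (median 0.57), against 3.86% of all genes. In S1, S2 and S3 the list median lay 0.17, 0.62 and 0.51 above the control mean. The count was 3 without D1, 1 without D2, 1 without S2, 2 without S3 and 1 without both libraries of mouse 2. Ciita, the class II transactivator, stood at 27.6, 32.9 and 32.1 CPM with DMSO and 49.7, 74.4 and 62.2 CPM with SGC0946, and its rise of 1.01 ± 0.19 held without any 1 library (adjusted p = 0.00263). Cd74, the invariant chain, was at 278, 260.3 and 360.5 CPM and 441, 692 and 558 CPM, with the highest value in SGC0946 mouse 2. It rose by 0.91 ± 0.21 (adjusted p = 0.00956; lost without D2 (0.0624), S2 (0.0534) or mouse 2 (0.183)). H2-Ab1, the beta chain of the class II molecule I-A, was at 63.97, 49.3 and 78.5 CPM and 84.4, 150.3 and 123 CPM. Its rise was 0.91 ± 0.27 (adjusted p = 0.0416; lost without D1 (0.104), D2 (0.196), S2 (0.175), S3 (0.101) or mouse 2 (0.433) and with DESeq2 (0.0627)). None of 13 MHC class I genes was called by edgeR, DESeq2 or limma-voom, and none had an unadjusted p under 0.05. Of 9 tested dendritic cell markers 2 rose (Irf4 and Cd24a), against 3.86% of all genes; 4 rose with the block, and 4 in unstimulated cells. Their summed level was 55.9 to 61.0 CPM in DMSO+LPS and 92.4 to 123.7 CPM in SGC0946+LPS cells. The dendritic cell marker Flt3 had 0 counts in all SGC0946+LPS libraries and Siglech in all DMSO+LPS libraries. The part of such cells in these values was not tested. In bulk RNA a change in the number of cells of a type and a change in transcript per cell cannot be told apart.

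Of 10 ligands that costimulate or restrain T cells 3 rose and none fell (1 rose without both libraries of mouse 2), against 3.86% of all genes that rose. Tnfsf4, the OX40 ligand, was at 86.7, 94.7 and 96.2 CPM with DMSO and 178, 172 and 219 CPM with SGC0946. Its arms were far apart, with a rise of 1.03 ± 0.10 (adjusted p = 5.17e-06). Cd86, a ligand of CD28, rose by 0.50 ± 0.10 (adjusted p = 0.00511; lost without mouse 2 (0.0592)). Cd40 and Cd274, the PD-L1 gene, overlapped between the arms: Cd40 was at 1173, 1241 and 1245 CPM and 1202, 1423 and 1227 CPM, and Cd274 at 3049, 2812 and 3119 CPM and 2956, 3563 and 3175 CPM. Slamf1, a receptor on activated leukocytes, rose from 10.5, 10.7 and 9.13 CPM to 23.2, 26.7 and 24.8 CPM (log2 1.298 ± 0.16, adjusted p = 4.00e-05). Pilra, an inhibitory receptor of myeloid cells, rose from 97.8, 89.8 and 104 CPM to 176, 175 and 169 CPM (log2 0.84 ± 0.10, adjusted p = 2.07e-05).

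Of 24 tested genes of secreted proteases, their inhibitors and the matrix 8 rose and none fell, against 3.86% of all genes that rose (median 0.16; 5 rose without both libraries of mouse 2). Mmp10, Mmp12, Mmp13, Mmp25, Timp1, Serpinb2 and Fn1 were among them. Mmp13, a collagenase, was already abundant, with 2246, 2249 and 2714 CPM in DMSO+LPS cells and 4591, 3997 and 4711 CPM in SGC0946+LPS cells. There was no overlap, and the rise was 0.88 ± 0.14 (adjusted p = 0.000387). Mmp12, the macrophage elastase, went from 759.6, 589 and 668 CPM to 1338, 1111 and 1832 CPM, most in mouse 3, by 1.09 ± 0.23 (adjusted p = 0.00619). Both genes lie in the same metalloprotease gene cluster on mouse chromosome 9. The AP-1 element, searched as TGANTCA on both strands, is known in promoters of this family. It stood in the windows of 7 of 20 protease and matrix genes, in 6.37% of tested genes with a window and in 7.81% of all windows. Of called genes with a window, 39 of 341 that rose (11.4%) and 28 of 322 that fell (8.7%) held it. The windows of both genes that hold a match are shown with AP-1 in capitals; Mmp12 has a second start in the table whose window holds none, and that of Mmp13 also has 1 match to the ISRE letters.
Mmp12 (chr9:7347124-7347423, plus strand): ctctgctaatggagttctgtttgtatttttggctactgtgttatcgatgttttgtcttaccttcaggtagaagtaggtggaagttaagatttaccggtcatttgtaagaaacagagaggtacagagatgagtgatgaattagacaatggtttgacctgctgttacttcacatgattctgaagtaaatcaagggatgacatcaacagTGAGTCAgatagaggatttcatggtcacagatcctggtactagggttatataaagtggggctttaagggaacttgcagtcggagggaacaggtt
Mmp13 (chr9:7272264-7272563, plus strand): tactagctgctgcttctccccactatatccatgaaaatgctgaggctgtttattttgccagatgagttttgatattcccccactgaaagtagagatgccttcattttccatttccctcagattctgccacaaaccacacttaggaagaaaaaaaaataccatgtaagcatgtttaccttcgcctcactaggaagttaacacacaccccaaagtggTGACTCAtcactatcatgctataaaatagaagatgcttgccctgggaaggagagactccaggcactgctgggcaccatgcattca
The match shows only that these letters are present.

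Mmp25, a membrane-anchored metalloprotease, rose by 0.76 ± 0.14 (adjusted p = 0.00158), and the serpin gene Serpinb2 rose by 0.98 ± 0.18 (adjusted p = 0.00263; lost without mouse 2 (0.0881)). Fn1, the fibronectin gene, was low, at 0.955, 0.852 and 1.25 CPM and 4.76, 7.70 and 5.47 CPM, and rose by 2.57 ± 0.44 (adjusted p = 0.000950). Mmp9 overlapped between the arms, at 6.14, 5.33 and 5.54 CPM and 3.54, 6.01 and 4.95 CPM (adjusted p = 0.631). Vcam1, an adhesion ligand for leukocyte integrins, rose from 92.1, 101 and 97.7 CPM to 149, 168 and 163 CPM, by 0.73 ± 0.10 (adjusted p = 0.000129). Stromal markers summed to 5.11 to 9.13 CPM in DMSO+LPS and 7.82 to 8.79 CPM in SGC0946+LPS cells, and the 1 of 6 that was tested was not called.

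Osteoclast genes rose in 3 of 8 cases with a median of 0.47, against 3.86% of all genes. With the block 5 of the 8 rose, where 633 of all 12013 genes did. The count was 1 without D2 or without both libraries of mouse 2. Car2, carbonic anhydrase 2, which supplies the acid that dissolves bone mineral, had the smallest p of all rising genes. It was at 3.96, 3.94 and 3.04 CPM in DMSO+LPS and 20.3, 24.2 and 21.2 CPM in SGC0946+LPS cells, several fold apart in every mouse, a rise of 2.58 ± 0.20 (adjusted p = 2.77e-07). Acp5, the tartrate-resistant acid phosphatase, rose by 0.72 ± 0.16 (adjusted p = 0.00911; lost without D2 (0.0565), S2 (0.0711) or mouse 2 (0.215)).

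Some sterol synthesis genes fell after LPS in SGC0946 cells, and the list median differed by mouse. Of 26 tested genes of sterol synthesis and uptake 9 fell and none rose (median -0.58), against 3.26% of all genes. Srebf2, Insig1, Hmgcs1, Mvd, Sqle, Msmo1, Sc5d and Stard4 were among them. In 20 of the 26 every SGC0946 library was below every control, as in 11.7% of all genes. By library, the list median relative to the control mean was -0.30, -0.96 and -0.47 in S1, S2 and S3. The number that fell was 14 with the block, 17 when low counts were kept, and 3 without D2 or without S2; it was 1 without both. Mvd, mevalonate diphosphate decarboxylase, was at 38.9, 33.9 and 31.3 CPM with DMSO and 20.6, 14.4 and 18.4 CPM with SGC0946. All 3 mice showed the drop, and the fall of 0.96 ± 0.17 was called under every alternative (adjusted p = 0.000914). Srebf2, the transcription factor of the pathway, was very even among controls at 361, 365 and 366 CPM and lower at 297, 267 and 258 CPM. It fell by 0.41 ± 0.10 (adjusted p = 0.0133; lost without S3 (0.0585) or mouse 2 (0.109)). Hmgcs1, the HMG-CoA synthase of the pathway, went from 439, 529 and 486 CPM to 329, 235 and 334 CPM, a fall of 0.70 ± 0.15 (adjusted p = 0.00806; lost without mouse 2 (0.152)).

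The window of Hmgcs1 is shown because of the 19 sterol genes with a window it alone held the sterol response element of SREBP factors, searched as TCACNCCAC on both strands and in capitals here; 1.39% of tested genes and 1.24% of all windows hold these letters. The inverted CCAAT or Y box, ATTGGC, which the factor NF-Y binds, stood in 14 of the 19, in 22.1% of tested genes with a window, in 14.7% of all windows, and 3 times in that of Hmgcs1.
Hmgcs1 (chr13:119690101-119690400, plus strand): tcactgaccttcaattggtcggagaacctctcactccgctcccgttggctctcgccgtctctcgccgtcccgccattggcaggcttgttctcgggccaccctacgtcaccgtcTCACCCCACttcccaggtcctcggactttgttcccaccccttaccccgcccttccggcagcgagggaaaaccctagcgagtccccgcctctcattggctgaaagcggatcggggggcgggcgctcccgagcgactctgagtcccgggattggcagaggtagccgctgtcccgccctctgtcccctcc
Of called genes with a window, the Y box was found in 75 of 322 that fell (23.3%) and 66 of 341 that rose (19.4%), shares near that of all tested genes.

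Genes around sterol use moved singly. Ch25h makes 25-hydroxycholesterol, an oxysterol induced by LPS that restrains SREBP processing. It was at 41.9, 40.6 and 37.2 CPM in DMSO+LPS cells and at 99.8, 62.2 and 72.9 CPM in SGC0946+LPS cells, highest in mouse 1, with no overlap. The rise of 0.97 ± 0.16 was called under every alternative (adjusted p = 0.000497). Npc1, the lysosomal cholesterol exporter, fell from 373 ± 15.8 to 309.5 ± 3.48 CPM (SD, n = 3 each), by 0.27 ± 0.05 (edgeR adjusted p = 0.00145). Abca1 and Abcg1, the efflux pumps, overlapped between the arms, with changes of -0.04 ± 0.12 and -0.01 ± 0.07. Acss2, which makes acetyl-CoA from acetate, was even within each arm at 13.9, 14.4 and 13.4 CPM and 9.03, 8.78 and 8.88 CPM, a fall of 0.65 ± 0.11 (adjusted p = 0.000796). It was 1 of 2 fatty acid synthesis genes of 19 that fell, against 3.26% of all genes. Fasn was at 111, 94.9 and 102 CPM and 99.9, 31.3 and 77.7 CPM and did not pass (adjusted p = 0.265).

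**Figure D3:**
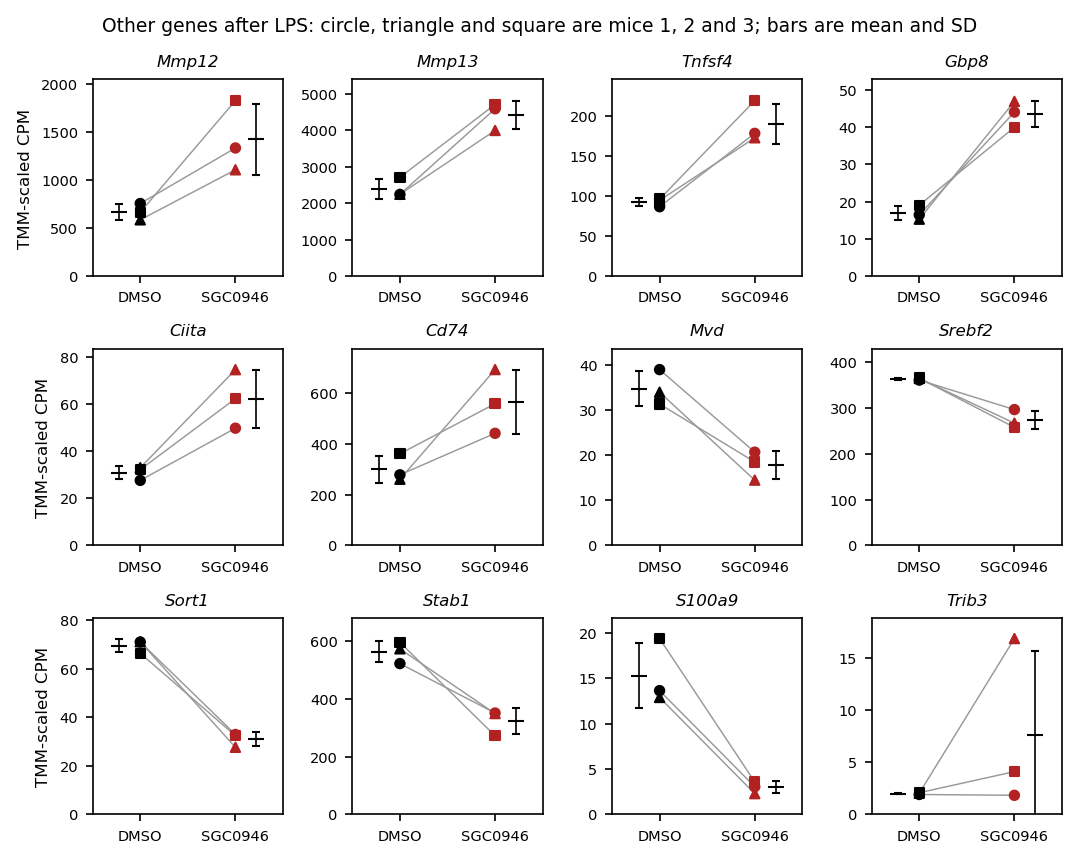
TMM-scaled CPM (vertical axes, from 0) of 12 further genes in each DMSO+LPS (black) and SGC0946+LPS (red) library; circle, triangle and square are mice 1, 2 and 3, joined by lines, and the bars are the mean and SD of 3 libraries. The arms do not overlap in any gene shown but Trib3, whose high value is that of SGC0946 mouse 2.

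Stress response genes differed in 1 library. Trib3, Sesn2 and Ddit3, targets of the integrated stress response, were called and all highest in SGC0946 mouse 2. Trib3 was at 1.91, 2.02 and 2.08 CPM with DMSO and at 1.83, 16.8 and 4.10 CPM with SGC0946 (edgeR adjusted p = 0.0391; lost without D1 (0.105), D2 (0.129), D3 (0.0878), S2 (0.619) or mouse 2 (0.715) and with limma-voom (0.257) or the LPS libraries fitted alone (0.112)). Sesn2 was at 16.2, 10.9 and 8.16 CPM and 13.5, 51.8 and 12.8 CPM, with overlapping groups. The list medians in S1, S2 and S3 were -0.08, 0.41 and -0.03. Of 16 genes 3 rose and 1 fell by edgeR, against 7.13% of all genes called; none was called by limma-voom or without both libraries of mouse 2, and none rose without S2, D2 or D3. S2 also had the lowest median of cell cycle genes, at -0.45 against 0.00 and 0.08, and no cell cycle gene of 29 was called by edgeR, DESeq2 or limma-voom, with 1 at an unadjusted p under 0.05.

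Of 8 tested genes of arginine, nitric oxide and itaconate metabolism 2 rose and none fell, against 3.86% of all genes that rose. Slc7a2, an arginine transporter, was at 103, 161 and 183 CPM with DMSO and 176, 261 and 267 CPM with SGC0946, with overlapping groups and the SGC0946 library higher in each mouse. It rose by 0.65 ± 0.16 (adjusted p = 0.0132; lost without D1 (0.0646), S2 (0.0633), S3 (0.0747) or mouse 2 (0.108) and with the LPS libraries fitted alone (0.0609)). Ass1, the argininosuccinate synthase that renews arginine from citrulline, rose by 0.36 ± 0.10 (adjusted p = 0.0365; lost without D1 (0.114), D2 (0.137), D3 (0.0517), S1 (0.102), S3 (0.0922) or mouse 2 (0.138) and with no count filter (0.0646)). Nos2, the inducible nitric oxide synthase, was at 1879, 1492 and 1859.6 CPM in DMSO+LPS and 2031, 1579 and 1816 CPM in SGC0946+LPS cells. Acod1, which makes itaconate, had 11236, 11727 and 11745 CPM and 10663, 11391 and 10949 CPM, and Ptgs2, the inducible cyclooxygenase, 1321, 1292 and 1232 CPM and 1399, 1134 and 1427 CPM. The groups overlapped in Nos2, Acod1 and Ptgs2 (adjusted p = 0.883, 0.850 and 0.909). Mgll, which degrades the endocannabinoid 2-arachidonoylglycerol, was low and rose from 3.82, 4.15 and 5.40 CPM to 9.76, 14.7 and 14.01 CPM, by 1.52 ± 0.21 (adjusted p = 0.000122). Among 15 complement and Fc receptor genes 4 rose and none fell, against 3.86% of all genes that rose; 2 rose without D1 or S2, 1 without D2 and none without both libraries of mouse 2. Cfb, complement factor B, rose from 108, 115 and 115 CPM to 148, 174 and 146 CPM, by 0.47 ± 0.09 (adjusted p = 0.00263; lost without mouse 2 (0.0739)), while C3 overlapped at 3729, 3544 and 3740.3 CPM and 3305, 3625 and 3289 CPM. Csf1r, the M-CSF receptor, and Spi1, which encodes the macrophage factor PU.1, did not pass (-0.02 ± 0.13 and -0.17 ± 0.07); Spi1 passed without S2.

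Of 13 genes of alternative activation Clec7a rose and Stab1 and Chil3 fell, against 7.13% of all genes called, and of 21 macrophage identity genes 1 rose and 1 fell, and none was called without D1 or without D2. Clec7a, the beta-glucan receptor dectin-1, rose from 118, 97.5 and 113 CPM to 168, 184 and 217 CPM, by 0.80 ± 0.11 (adjusted p = 0.000122). Stab1, the scavenger receptor stabilin-1, fell from 521, 572 and 594 CPM to 350.3, 348 and 272 CPM, by 0.80 ± 0.10 (adjusted p = 7.63e-05). In both genes the arms were clearly apart. Chil3, a chitinase-like protein, was low and fell from 8.05, 7.46 and 9.41 CPM to 2.68, 2.89 and 2.05 CPM, by 1.68 ± 0.23 (adjusted p = 0.000112).

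Sort1, the sorting receptor sortilin, had the smallest p of all falling genes, with 71.1, 71.1 and 66.4 CPM against 32.9, 27.7 and 32.5 CPM and a fall of 1.17 ± 0.10 (adjusted p = 4.47e-07). Lrp5, a Wnt co-receptor, fell by 0.83 ± 0.10 (adjusted p = 5.13e-05). Sqstm1, the autophagy receptor p62, was abundant and fell from 1946, 1889 and 1763 CPM to 1386, 1216 and 1387 CPM, by 0.49 ± 0.07 (adjusted p = 0.000127). Hk1, hexokinase 1, fell by 0.53 ± 0.08 (adjusted p = 0.000269). Slc2a1, the glucose transporter GLUT1, just missed the threshold in the main fit (edgeR adjusted p = 0.0506). It passed, as lower, with the block (0.0264), no count filter (0.0181), DESeq2 (0.0304) and limma-voom (0.0385). The same held with RLE factors (0.0496), the LPS libraries fitted alone (0.0196), separate transcripts (0.0485) and without S2 (0.0395).

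Marker genes of neutrophils and granulocyte precursors had the lowest median of any list, -2.05, at low levels. Of 7 tested genes 5 fell and none rose, against 3.26% of all genes that fell. Ngp, neutrophilic granule protein, went from 11.05, 12.5 and 11.6 CPM to 0.976, 1.68 and 1.02 CPM, by 3.22 ± 0.34 (adjusted p = 9.12e-06). S100a9, a subunit of calprotectin, went from 13.6, 12.9 and 19.4 CPM to 3.05, 2.29 and 3.59 CPM, by 2.38 ± 0.29 (adjusted p = 5.13e-05). Ltf, lactoferrin, fell by 3.21 ± 0.48 (adjusted p = 0.000244). No SGC0946 library reached the lowest control in any of Ngp, S100a9, S100a8 and Ltf. The summed level of all 16 listed genes was 231.9 to 268.7 CPM in DMSO+LPS and 160.9 to 208.9 CPM in SGC0946+LPS cells. The neutrophil genes Elane and Cxcr2 had 0 counts in all DMSO+LPS libraries, Mpo, Ctsg, Fcnb and Ly6g had 0 counts in all SGC0946+LPS libraries, and the part of granulocytes in these values was not tested.

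Both tested genes of the T and NK cell marker list rose, as did 3.86% of all genes. Lck, a kinase of T cells, went from 18.4, 18.3 and 22.97 CPM to 33.9, 38.97 and 39.8 CPM, by 0.92 ± 0.20 (adjusted p = 0.00844; lost without D2 (0.0516) or mouse 2 (0.112)). Cd4 rose by 0.91 ± 0.18 (adjusted p = 0.00355; lost without mouse 2 (0.112)). The T cell genes Cd3d, Cd3e and Cd8a had 0 counts in all 6 libraries, and Cd3g had 0 in the SGC0946+LPS libraries. The 10 markers of that list summed to 25.2 to 31.3 CPM in DMSO+LPS and 46.0 to 55.6 CPM in SGC0946+LPS cells. Rasgrp1, an activator of Ras best known in lymphocytes, rose from 18.96, 17.999 and 23.8 CPM to 53.7, 57.5 and 60.5 CPM, by 1.501 ± 0.14 (adjusted p = 4.57e-06).

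The genes with the largest rises were low in control cells. Among called genes with at least 5 CPM in the higher group and no overlap, Arhgef5, an exchange factor for small GTPases, rose most. It was at 0.546, 0.107 and 0 CPM with DMSO and 8.30, 6.25 and 3.76 CPM with SGC0946, a rise of 4.82 ± 0.49 (adjusted p = 6.56e-06). Gfra1, a receptor for the growth factor GDNF, was at 1.23, 0.639 and 0.277 CPM and 4.88, 6.61 and 5.64 CPM, a rise of 2.99 ± 0.42 (adjusted p = 0.000134). Armcx2, an X-linked gene of the armadillo repeat family, was at 1.50, 2.34 and 2.35 CPM and 8.79, 12.5 and 15.4 CPM, a rise of 2.53 ± 0.27 (adjusted p = 1.08e-05). The other genes of this rule that rose by over 2 on the log2 scale were Chic1, Car2, Fn1, Stk39, Ppp1r9a, Fstl1 and Epb41l3. At the other end, Uck2, a uridine-cytidine kinase, fell from 7.91, 9.90 and 8.30 CPM to 2.93, 2.16 and 3.59 CPM, by 1.62 ± 0.22 (adjusted p = 0.000122). Htr2b, a serotonin receptor, fell by 1.04 ± 0.14 (adjusted p = 0.000129).

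**Figure D4:**
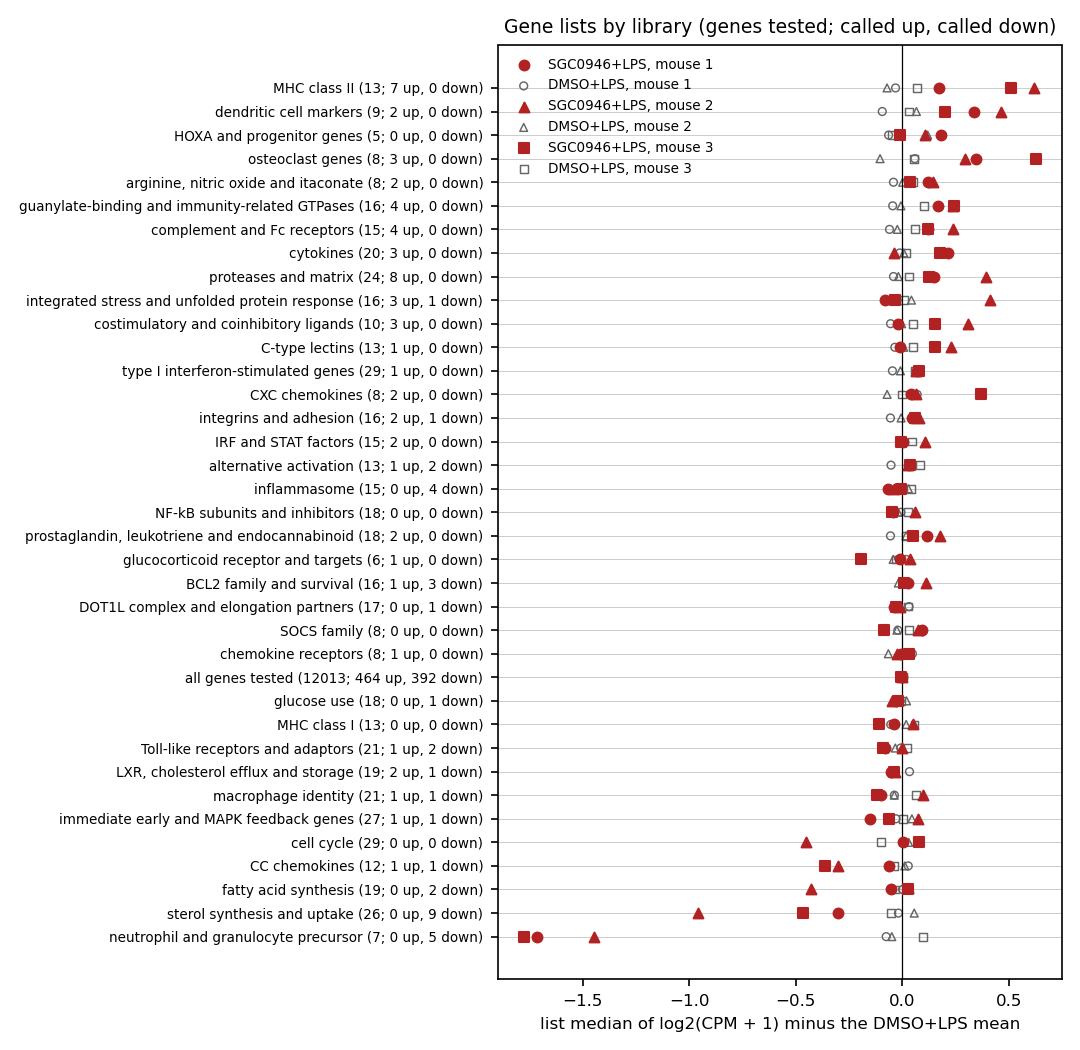
Median over each gene list of log2(CPM + 1) minus the DMSO+LPS mean (horizontal axis), for every SGC0946+LPS library (filled red) and DMSO+LPS library (open grey); circle, triangle and square are mice 1, 2 and 3. The labels give the genes tested and those called up and down, and SGC0946 mouse 2 lies farthest out for sterol, MHC class II, cell cycle and stress lists.

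Part of the effect was also seen without LPS. In unstimulated cells SGC0946 changed 1048 genes (8.72%), and 360 were called in both conditions, which is 42.1% of those called after LPS and 34.4% of those called without it. All 360 moved in the same direction, 201 up and 159 down. The conditions were fitted together and came from the same mice, so they are not independent. The log2 change of Mmp13 was 0.88 ± 0.14 after LPS and 1.27 ± 0.14 without it, that of Ciita 1.01 ± 0.19 and 1.33 ± 0.20, that of Srebf2 -0.41 ± 0.10 and -0.56 ± 0.08, and that of Sort1 -1.17 ± 0.10 and -1.20 ± 0.08.

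Of the 496 genes called after LPS alone none had a called difference between the conditions. Such genes therefore cannot be said to respond to the inhibitor only after LPS. Lysmd3 came closest, with -0.66 ± 0.10 after LPS, 0.01 ± 0.07 without it and a difference of -0.67 ± 0.12 (adjusted p = 0.0809). Pwp1, a ribosome biogenesis gene, rose by 0.38 ± 0.06 after LPS, against a change of -0.05 ± 0.06 without it, a difference of 0.43 ± 0.08 (adjusted p = 0.0809). Across all genes 835 differences had an unadjusted p under 0.05 (6.95%), and 1 was called (0.00832%), against 34 by DESeq2 and 6 with the block. The titles of unstimulated DMSO replicates 1 to 3 carry a word for a repeated analysis that no LPS library and no SGC0946 library carries, so in the difference of effects that step and the treatments cannot be told apart except through DMSO replicate 4.

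The called difference was that of Lcn2, lipocalin 2, an iron-siderophore binding protein of neutrophil granules and of LPS-stimulated macrophages. Without LPS it was at 2.18, 3.12, 3.66 and 3.68 CPM in the 4 DMSO libraries and at 0.174, 0.298, 0.181 and 0.356 CPM in the 4 SGC0946 libraries. After LPS the levels were 16.9, 17.8 and 18.96 CPM with DMSO and 8.91, 13.6 and 11.3 CPM with SGC0946. SGC0946 lay below DMSO in both conditions without overlap, and the gap was far smaller after LPS. The log2 change was -3.55 ± 0.28 without LPS (adjusted p = 1.67e-07) and -0.67 ± 0.16 after it (adjusted p = 0.0127; lost without S1 (0.0685)), a difference of 2.89 ± 0.34 (edgeR adjusted p = 0.000395).

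**Figure D5:**
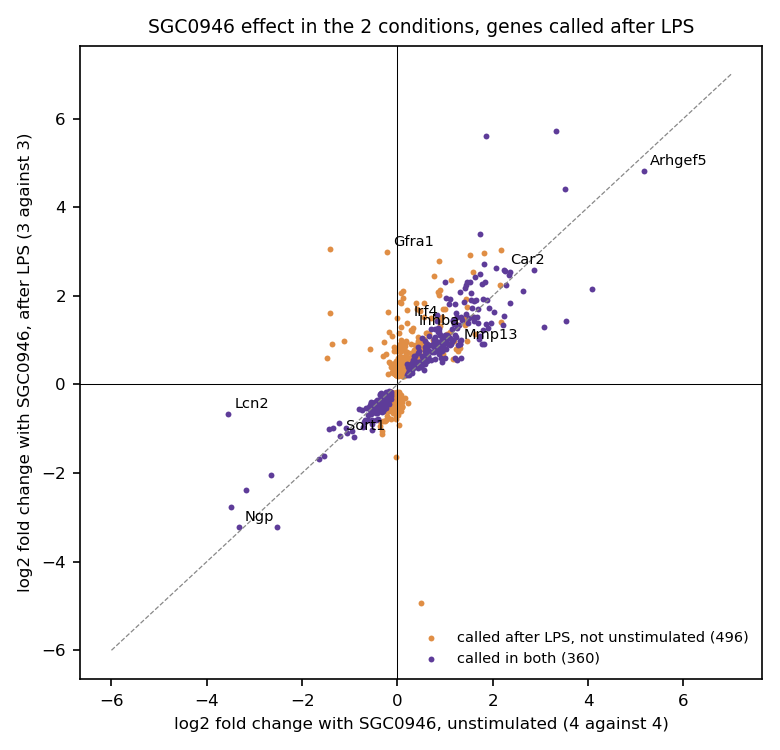
Log2 fold change with SGC0946 after LPS (vertical axis) against that in unstimulated cells (horizontal axis) for the 856 genes called after LPS; purple genes were called in both conditions and orange ones after LPS alone, and the dashed line marks equal effects. The 360 purple genes all lie in the quadrants of equal sign, and Lcn2 lies far from the dashed line at -3.55 ± 0.28 and -0.67 ± 0.16.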

How the data were processed

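RNA-seq read counts and RPKM values per RefSeq transcript (35745 transcripts, 20 libraries) were deposited by the authors; mm10, STAR 2.5.2b and SAMtools 1.3.1 are named in the submitters' processing notes, and no source used here gives the counting program, its annotation or its use of strand. The deposited RPKM values are the authors' counts scaled by transcript length and library size, and were used only to set levels of genes side by side. Per the labels' protocols, poly(A) libraries were read as single ends. Transcripts were named with a RefSeq gene table of GRCm38.p6; 305 without a name (1.17% of counts) were left out, and of 6035 symbols with several transcripts the one with the highest total count was kept, which left 24342 symbols and 57.4% of counts.

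Counts were fitted with edgeR 4.0.16 (R 4.3.3; TMM scaling, filterByExpr with a minimum count of 10, quasi-likelihood F test, 1 mean per group over all 20 libraries, 14 residual degrees of freedom) and p-values adjusted by Benjamini-Hochberg over 12013 genes, with 0.05 as threshold; all tests are two-sided. The DMSO+GW3965 and SGC0946+GW3965 libraries thus took part in the count filter, the scaling and the estimate of spread. SE is the log2 fold change divided by the root of F, and every value after ± is this SE unless SD is named. CPM are TMM-scaled. List medians by library use log2(CPM + 1). The steps were tested on simulated data. Alternatives were RLE factors, total scaling, other filters, DESeq2 1.42.0, limma-voom (limma 3.58.1), a fit of the compared groups alone, a replicate block, RPKM-ranked or separate transcripts, leaving out each library, leaving out both LPS libraries of mouse 2 and, chosen after seeing the data, the LPS libraries alone with the block. The deposited sample sheet gives the same mouse number as the replicate number in 20 of 20 libraries, so numbers pair animals. Deviations of same-numbered LPS libraries had correlations of 0.30, 0.12 and 0.098. Between differently numbered LPS libraries of the 2 arms they were -0.18 to 0.074. The main fit has no term for mouse, and the replicate block has one. Genes given with values are up to 5 called members of each list by smallest p, 58 key genes whatever their result, the 12 called genes per direction with the smallest p, the 10 with the largest fold (at least 5 CPM, no overlap), the 10 with the smallest p in the difference of effects and the 5 with the highest RPKM. Some genes that these rules name are not reported here. The gene lists, members and rules were chosen with earlier results of these data known. Precision was bound by counting error and by having 3 mice per arm. The SE and p-values of the main fit rest on the spread within every group of the 20 libraries. They do not measure the spread within the LPS groups alone.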

Additional observations from a re-analysis of the deposited data

Results flagged for a closer look

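The effect of SGC0946 on Lcn2, the lipocalin 2 gene, differed between cells with and without LPS. The difference of the log2 effects, LPS minus unstimulated, was 2.89 ± 0.34 (SE; edgeR adjusted p = 0.000395), the 1 called difference among 12013 genes. Lcn2 was lower in every SGC0946 library of both comparisons and fell by 3.55 ± 0.28 without LPS and by 0.67 ± 0.16 after LPS, and the groups did not overlap in either. Its levels without LPS were low, 0.174 to 0.356 CPM with SGC0946, and unstimulated DMSO replicates 1 to 3 carry a label of repeated analysis. The part of either in the difference was not tested.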

How the results depend on the processing

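The count of genes called after LPS was 857 with RLE size factors, 816 with total scaling, 893 with no count filter, 764 with a minimum count of 30, 939 with DESeq2, 801 with limma-voom and 1167 (633 higher, 534 lower) with the replicate block. With the LPS libraries fitted alone it was 586 (380 higher, 206 lower), and 865 (532 higher, 333 lower) with the block added. Leaving out 1 LPS library or both of mouse 2 gave 333 to 796 genes, 174 to 432 higher and 159 to 364 lower. In unstimulated cells leaving out 1 library gave 578 to 1099 genes (339 to 590 higher, 239 to 509 lower), with 599 without DMSO replicate 4 and 578 without SGC0946 replicate 4, and the replicate block gave 1481 (758 higher, 723 lower). Called differences between the effects numbered 11 (4 higher, 7 lower) with no count filter, 34 (13 higher, 21 lower) with DESeq2, 6 (3 higher, 3 lower) with the replicate block and 1 to 11 (1 to 5 higher, 0 to 6 lower) with 1 library left out. Log2 changes near 0 turned sign, with no call on either side: Cxcl10 had 0.001562, 0.008321, 0.003886, 0.003678 with total scaling, the stricter filter, LPS libraries alone, LPS libraries alone and the block; Mllt10 had -0.006176 with no filter; Socs3 had 0.006523, 0.002, 0.0001531 with the stricter filter, LPS libraries alone, LPS libraries alone and the block; Abcg1 had 0.0007654 with the stricter filter. With libraries left out the range was -0.02659 to 0.01812 for Cxcl10, -0.1788 to 0.07693 for Fos, -0.04929 to 0.1412 for Nos2, -0.06091 to 0.04645 for Socs3, -0.1726 to 0.07578 for Csf1r, -0.1763 to 0.07005 for Abca1, -0.03877 to 0.01162 for Abcg1, -0.03099 to 0.07861 for Mllt10, -0.1001 to 0.01326 for Nfkbia, -0.2937 to 0.1223 for Egr1, -0.01947 to 0.1459 for Ptgs2, -0.04533 to 1.725 for Il12b, -0.03569 to 0.07752 for Irf1, -0.007987 to 0.1175 for Cd40, -0.1548 to 0.1408 for Ccl5, -0.1963 to 0.03979 for Cd14, -0.009822 to 0.1684 for Cd274. Il12b was not near 0 in the main fit, and it passed without D2 and without both libraries of mouse 2. Of 132 called genes picked by rule, 66 kept call and direction under all 18 settings. Taking the transcript with the highest RPKM changed none of 171. Where no construction of the alternative shows it, the cause was not tested.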
